A study of Homo sapiens with 12 samples.

Results

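Astrocyte marker genes were measured in Daoy cells, an established human medulloblastoma (MB) line, grown with or without medium that had been conditioned by rat astrocytes. The marker set held 10 genes listed by name as textbook markers of astrocytes, namely GFAP, AQP4, S100B, ALDH1L1, ALDOC, NDRG2, GJA1, GJB6, SLC1A2 and SLC1A3. Their transcripts were represented by 13 probes of the 34127 on the array, and by 10 of the 19740 genes for which a probe had a symbol. GFAP, AQP4 and NDRG2 had 2 probes each and every other marker had 1.

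Astrocytes are the glial cells that buffer ions and water, take up glutamate at synapses and couple to one another through gap junctions. GFAP is the intermediate filament protein by which they are most often stained, and the other markers code for their water channel, calcium-binding protein, metabolic enzymes, connexins and glutamate transporters. MB is a tumour of the cerebellum, and the genes of the granule neuron lineage are a usual reference for its origin, while several of the astrocyte markers are also made by neural progenitors, by radial glia and by cells outside the brain.

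The study compared gene expression of Daoy cells in astrocyte conditioned media (ACM) with that in full Dulbecco's medium (DMEM), after 1 passage (P1) or after 3 (P3), at 48 h per passage. The 12 arrays formed 4 groups of 3, P1 ACM, P1 DMEM, P3 ACM and P3 DMEM, and the 3 arrays of a group came from independent experiments per the labels. Both media contained fetal bovine serum and an antibiotic-antimycotic mix. ACM was the supernatant of hippocampal astrocytes from Sprague Dawley rat pups, passed through a filter to remove cells and debris, whereas the array probes were designed against human transcripts, and how they bind rat transcripts was not tested. Daoy cells are 1 line from 1 tumour, so the replicates carry no spread between tumours. Each array measured RNA of a whole culture, in which fewer cells of a type and less RNA per cell cannot be told apart.

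The 12 arrays lay on 3 slides of 4 arrays, read from the scan identifiers in the files. All of P1 ACM was on slide 1, together with P3 ACM replicate 1. The remaining P3 ACM arrays (replicates 2 and 3) shared slide 2 with P1 DMEM replicates 1 and 2, and P1 DMEM replicate 3 was on slide 3 beside all of P3 DMEM. At neither passage did an ACM array share its slide with a DMEM array. The scanner software called between 90.9% and 94.6% of probes well above background on slide 1, between 74.2% and 80.2% on slide 2 and between 88.1% and 91.0% on slide 3, and the median probe intensity of an array ranged from 265.2 to 606.2 units. In addition, the series' table of normalized values gave all 12 of its columns a sample name that belonged to another scanner file, and for 10 of them that file was of another group. Each column ranked its probes as 1 scanner file did (Spearman's rho across probes of at least 0.99997), against 0.953 to 0.992 for the file of the same name. Which set of names is right cannot be told from the files. The values below follow the names of the scanner files, and the table's own names are given as an alternative beside the called markers.

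Levels are given as log2 of the processed intensity after subtraction of each array's own 75th percentile on that scale, so 0 is a level below which 75% of its probes lie. Probes bind their targets with different strength, and the level of 1 probe is therefore compared between arrays and not with that of another probe. A difference was called when it was more than 2-fold with an unadjusted *p*-value of 0.05 or less in limma, the thresholds of the study, and a Benjamini-Hochberg adjusted *p*-value over the 31078 probes tested is given beside it. With slides and groups so arranged, *p*-values measure only the spread between these arrays.

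RefSeq promoter sequences were at hand for 7 of the 10 markers (ALDH1L1, ALDOC, NDRG2, AQP4, GJA1, GJB6 and SLC1A3), with 16 start sites in all, and 4 of them are shown because the results below turn on their genes. ALDH1L1 and GJB6 were called higher in ACM at P1, AQP4 was called lower in ACM at both passages, and GJA1 was bright on every array. Each is the 250 bases before a start in GRCh38.p14, 5′ to 3′ along the gene, and capitals mark matches on either strand to the letters searched, which were TGACTCA for AP-1, TTCNNNGAA for STAT factors, GGGCGG for the GC box and TATAAA for the TATA box.
ALDH1L1, chr3:126180587-126180836, minus strand: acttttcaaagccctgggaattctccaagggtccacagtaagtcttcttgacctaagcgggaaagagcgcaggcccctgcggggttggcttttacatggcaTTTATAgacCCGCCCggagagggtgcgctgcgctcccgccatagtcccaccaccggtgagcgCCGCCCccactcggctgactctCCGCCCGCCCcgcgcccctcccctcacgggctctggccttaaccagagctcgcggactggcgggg
GJB6, chr13:20230979-20231228, minus strand: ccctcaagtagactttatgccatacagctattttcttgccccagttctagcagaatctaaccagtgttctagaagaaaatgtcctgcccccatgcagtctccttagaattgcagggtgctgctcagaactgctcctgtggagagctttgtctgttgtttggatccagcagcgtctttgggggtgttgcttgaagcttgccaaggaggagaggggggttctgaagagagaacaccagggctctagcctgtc
AQP4, chr18:26862911-26863160, minus strand: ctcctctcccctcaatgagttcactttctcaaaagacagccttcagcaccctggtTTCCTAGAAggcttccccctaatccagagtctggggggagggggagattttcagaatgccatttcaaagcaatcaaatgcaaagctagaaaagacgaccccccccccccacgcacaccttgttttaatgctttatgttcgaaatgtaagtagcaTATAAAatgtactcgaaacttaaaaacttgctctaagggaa
GJA1, chr6:121435396-121435645, plus strand: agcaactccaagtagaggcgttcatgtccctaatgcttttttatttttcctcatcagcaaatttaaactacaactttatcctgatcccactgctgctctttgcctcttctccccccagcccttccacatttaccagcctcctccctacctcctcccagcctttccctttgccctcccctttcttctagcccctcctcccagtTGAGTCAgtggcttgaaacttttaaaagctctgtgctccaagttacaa

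The ALDH1L1 window, from 1 of its 2 start sites, held 4 GC boxes and a TATAAA match on the opposite strand. The pair of GC boxes nearest the start overlapped, and the GC content of the window was 65.2%. The other ALDH1L1 window, not shown, held no match to any of the letters, with a GC content of 60.0%. The GJB6 window held no match to any of the letters, with a GC content of 50.8%. The AQP4 window, from 1 of its 3 start sites, held 1 STAT match and 1 TATA box, which began 195 and 41 bases before the start, at a GC content of 45.2%. The other AQP4 windows, not shown, held no match to any of the letters, with GC contents of 42.0% and 30.4%. The GJA1 window held 1 AP-1 match that began 48 bases before the start. Among the 35116 windows of all genes, 4.2% held the AP-1 letters, 6.6% the STAT letters, 42.6% a GC box and 10.7% a TATA box, and the median GC content was 58.0%. These matches are letters in a window and no binding was measured.

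Most, but not all, of the astrocyte markers gave signal in Daoy cells kept in DMEM. ALDH1L1, ALDOC, NDRG2, GJA1, SLC1A3 and AQP4, 6 of the 10 genes, had a probe well above background on all 6 DMEM arrays, and each of those probes was also well above background on all 6 ACM arrays. SLC1A2 reached this call on 5 of the 6 DMEM arrays, GJB6 on 4, S100B on 3 and the better of the GFAP probes on 4. The share of 60.0% lay below the 79.6% of all genes with a symbol. The call was not confined to astrocyte genes, since 5 of 9 measured microglia markers (55.6%), 9 of 10 oligodendrocyte markers (90.0%) and 7 of 13 neuron markers (53.8%) passed it on all 6 DMEM arrays as well. Among 35 further astrocyte genes measured, such as VIM, SOX9, GLUL and APOE, 30 passed (85.7%), and 15 of 18 genes of reactive astrocytes did (83.3%). Of 10 genes of the granule neuron lineage 7 passed (70.0%), namely BARHL1, ZIC2, PAX6, GLI1, GLI2, PTCH1 and MYCN. Of the others, ZIC1 was well above background on 5 DMEM arrays. ATOH1 and NEUROD1, transcription factors of granule cell precursors and their differentiation, were so on 1 DMEM array each.

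**Figure D1:**
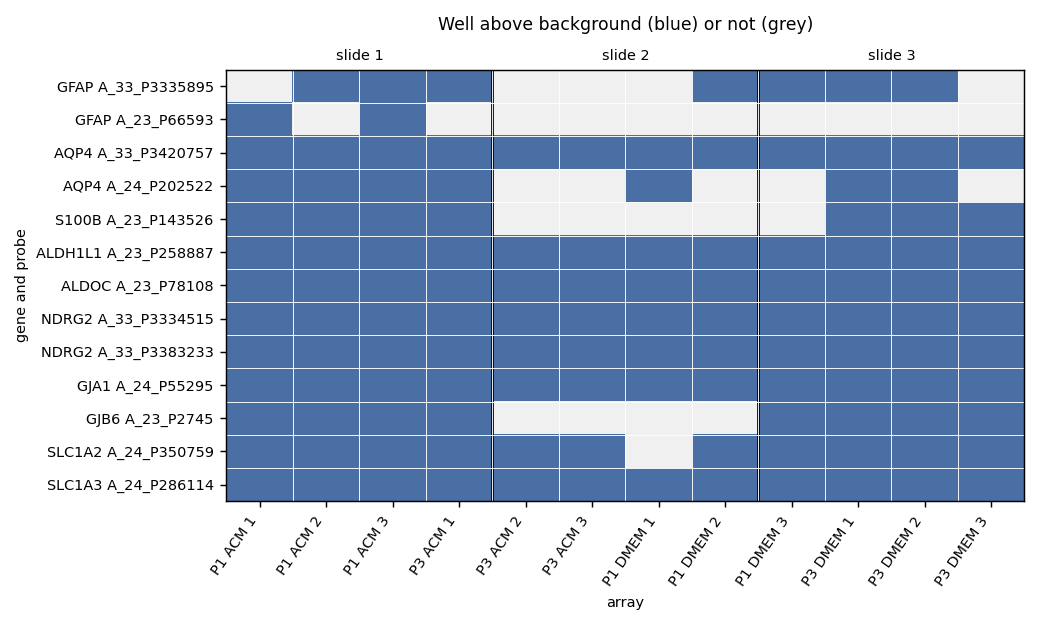
The scanner software's call for each marker probe (rows) on each of the 12 arrays (columns), ordered by slide, with blue for well above background and grey for not. The 7 probes of ALDH1L1, ALDOC, NDRG2, GJA1, SLC1A3 and AQP4 (A_33_P3420757) are blue throughout, and on slide 2 GJB6 and S100B are grey on all 4 arrays irrespective of medium.

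GFAP, the filament protein, was at the edge of detection in both media. On probe A_33_P3335895 its level was -7.06, -6.70 and -6.59 in P1 ACM, -6.71, -7.88 and -7.44 in P3 ACM, -7.78, -5.69 and -6.05 in P1 DMEM, and -7.25, -6.34 and -6.96 in P3 DMEM, and the arrays of the groups overlapped. The call of well above background was given to this probe on 3 ACM arrays and on 4 DMEM arrays of 6 each. Over all 12 arrays, called or not, its raw intensities ran from 8.96 to 41.6 units. The other probe, A_23_P66593, was well above background on 2 of 12 arrays, P1 ACM replicates 1 and 3, with levels of -4.17 and -6.26, while P1 ACM replicate 2 was at -9.11. Its 9 arrays outside P1 ACM lay between -9.78 and -7.32, so that 1 array, at 175.0 units, stood far above the rest. Neither GFAP probe was well above background on all arrays of any group, and both fell to the filter on dim probes. Without that filter the first probe gave differences of -0.28 at P1 and -0.49 at P3 and the second probe gave 1.97 and 1.42, none of them past the thresholds.

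The same pattern of calls followed the slides in the dimmer markers. S100B, a calcium-binding protein of astrocytes that Schwann cells and melanocytes also make, was well above background on 4 of 4 arrays of slide 1, 0 of 4 of slide 2 and 3 of 4 of slide 3. GJB6, which codes for connexin 30, was so on 4, 0 and 4 arrays of the slides in turn, and the second AQP4 probe on 4, 1 and 2. Between 12 and 13 of the 13 marker probes were well above background on the arrays of slide 1, between 8 and 9 on slide 2 and between 10 and 12 on slide 3. On slide 2, which held both media, the P3 ACM arrays had 8 and 8 and the P1 DMEM arrays 8 and 9.

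At P1, 3 of the 9 markers tested were higher in ACM and 1 was lower, with more than 2-fold change and an unadjusted *p*-value of 0.05 or less, whereas over all genes tested 13.5% were called higher and 0.0989% lower. The markers that were higher were GJB6, S100B and ALDH1L1 and the lower one was AQP4. In the fit of all 12 arrays no marker, and none of the 25275 genes tested, had an adjusted *p*-value of 0.05 or less in limma, although 6069 genes (24.0%) and 6 of the markers had an unadjusted one. When limma was fitted to the 6 P1 arrays alone, 4849 genes passed at an adjusted *p*-value of 0.05, GJB6, S100B and ALDH1L1 among them. The median difference of the 9 markers was 0.53, beside 0.07 over all genes with a symbol. GJB6, S100B, ALDH1L1, AQP4, ALDOC and SLC1A2 belonged to the dim class when probes were split by mean level into 3 equal classes, and in that class 34.2% of probes were called higher and the median difference was 0.79. In the middle and bright classes the medians were 0.14 and -0.07. In the plot of levels by array the 3 markers called higher are ones in which slide 1 stands above slide 2.

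**Figure D2:**
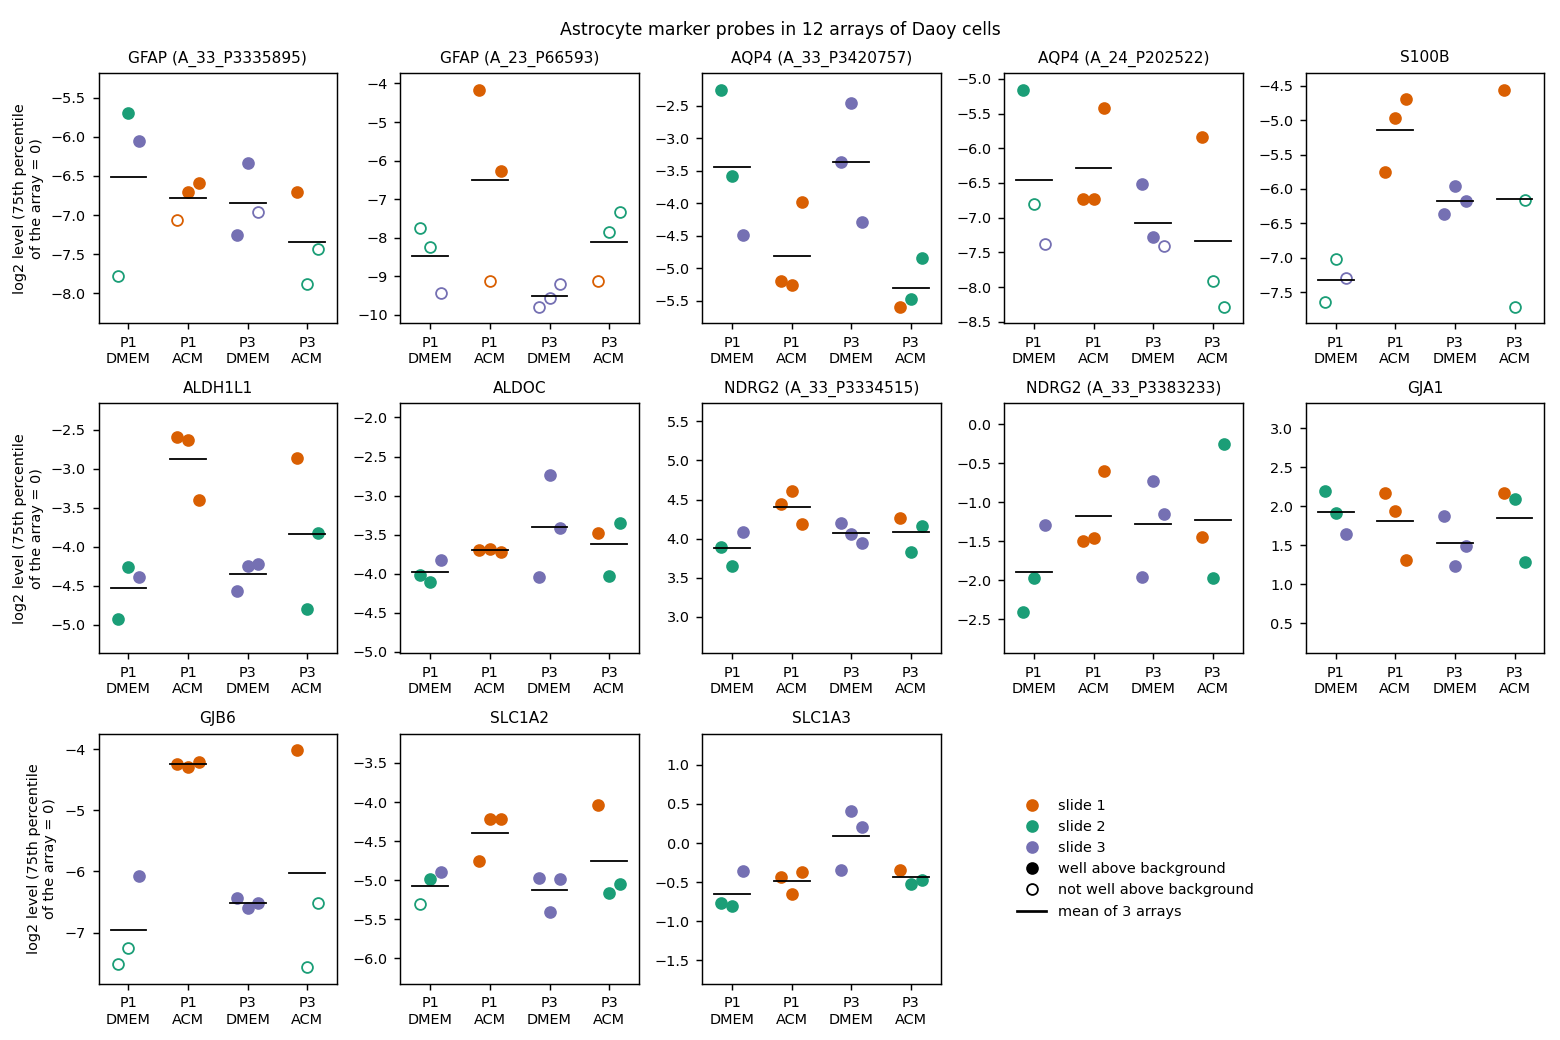
Level of each of the 13 marker probes in every array (log2, with the 75th percentile of the array at 0), by group, coloured by slide, with open circles for arrays not well above background and a line for the mean of 3 arrays. GJB6 lies between -4.29 and -4.02 on the 4 arrays of slide 1 and between -7.56 and -6.08 on the other arrays, and P3 ACM replicate 1 sits with the P1 ACM arrays of its slide.

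ALDH1L1, the folate enzyme 10-formyltetrahydrofolate dehydrogenase and a widely used astrocyte marker, was called at P1. Its level was -2.60, -2.63 and -3.40 in P1 ACM against -4.93, -4.26 and -4.39 in P1 DMEM, and it was -2.86, -4.80 and -3.82 in P3 ACM against -4.57, -4.25 and -4.22 in P3 DMEM. The P1 groups did not overlap, and at P3 the single array of slide 1 was the highest while P3 ACM replicate 2 was below all 3 P3 DMEM arrays. The difference was 1.65 ± 0.42 (log2, SE) at P1 (limma, adjusted *p* = 0.103) and 0.52 ± 0.42 at P3 (adjusted *p* = 0.776). With slide as a block the P1 difference was 0.27 ± 0.59, and under the names of the series' table, which put other arrays in the groups, it was -0.13.

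GJB6 was also called higher in ACM at P1. Its level was -4.25, -4.29 and -4.21 in P1 ACM and -7.51, -7.25 and -6.08 in P1 DMEM, where it was well above background on 1 of the 3 arrays, and P3 ACM gave -4.02, -7.56 and -6.52 beside -6.44, -6.59 and -6.51 in P3 DMEM. Each ACM array of slide 1 was above every other array of the series, and the P3 ACM arrays of slide 2 were not. Its difference was 2.70 ± 0.70 at P1 (limma, adjusted *p* = 0.103) and 0.48 ± 0.70 at P3 (adjusted *p* = 0.867). Once slide was fitted the P1 difference was 0.12 ± 0.45. No slide held both P1 groups, so this value was linked through P3 ACM replicate 1 and the arrays of slide 2. GJB6 was well above background on none of the slide 2 arrays, so the value is not a measured effect of ACM. Without P3 ACM replicate 1, the 1 array of its group well above background, the P3 difference was -0.53. Under the names of the series' table GJB6 was lower in ACM, by -0.81 at P1 and by -1.92 at P3, and the latter passed the thresholds.

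S100B had levels of -5.76, -4.96 and -4.69 in P1 ACM and of -7.65, -7.02 and -7.29 in P1 DMEM, where none of the arrays had it well above background. The bound on its change was therefore at least 2.22-fold higher in P1 ACM, counted from the dimmest measured probes of the DMEM arrays or from its own signal, and the fit gave 2.18 ± 0.61 (limma, adjusted *p* = 0.103). In P3 ACM its levels were -4.56, -7.71 and -6.16, which spanned the P3 DMEM levels of -6.37, -5.96 and -6.17, and the difference was 0.03 ± 0.61 (limma, adjusted *p* = 0.993). The slide block took the difference at P1 to -0.18 ± 0.76, and under the table's names it was -0.31. The block value was again linked through slide 2, where no array had S100B well above background, so it is not a measured effect either.

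The P3 ACM group spanned slides 1 and 2, with 1 array against 2, and a shift between slides cannot be told apart there from a difference between these independent experiments. P3 ACM replicate 1 on slide 1 exceeded the mean of replicates 2 and 3 on slide 2 by 1.45 in ALDH1L1 and 1.07 in SLC1A2, both log2 differences of levels. GJB6 and S100B were not well above background on either of the latter arrays, and replicate 1 was at least 3.47-fold higher in GJB6 and at least 2.40-fold higher in S100B. The median of the dim class of probes was 1.06 in the same comparison, that of the middle class 0.24 and that of the bright class -0.10. AQP4 on its brighter probe differed by -0.42. Within slide 2, where ACM and DMEM arrays lay side by side though at different passages, P3 ACM minus P1 DMEM was 0.28 in ALDH1L1 and 0.04 in SLC1A2, while GJB6 and S100B were well above background on none of the 4 arrays and could not be compared. Within slide 1, P1 ACM and P3 ACM replicate 1 differed by -0.23 in GJB6, -0.58 in S100B and -0.01 in ALDH1L1. The part of the slides in the P1 differences was not tested apart from these values.

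**Figure D3:**
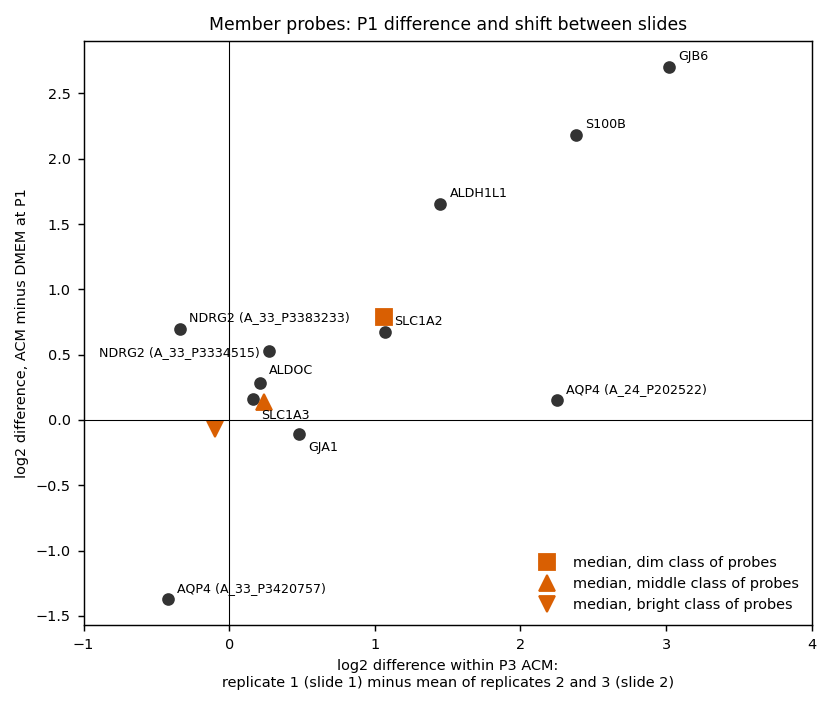
Difference between ACM and DMEM at P1 (vertical, log2) against the difference between P3 ACM replicate 1 on slide 1 and the mean of P3 ACM replicates 2 and 3 on slide 2 (horizontal, log2) for the 11 marker probes tested, with medians of the dim, middle and bright classes of all probes. ALDH1L1, GJB6 and S100B are far from 0 on both axes, though the horizontal values of the latter pair are set against arrays not well above background, and AQP4 (A_33_P3420757) is the marker with a P1 difference of -1.37 beside a shift of -0.42.

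AQP4, the water channel of astrocyte endfeet, was called lower in ACM at both passages on its brighter probe. The level on A_33_P3420757 was -5.20, -5.26 and -3.99 in P1 ACM and -2.26, -3.59 and -4.49 in P1 DMEM, so 1 array of each group crossed over. At P3 it was -5.59, -5.48 and -4.85 in ACM and -3.37, -2.46 and -4.29 in DMEM, with every ACM array below every DMEM array. The difference was -1.37 ± 0.60 at P1 (limma, adjusted *p* = 0.198) and -1.94 ± 0.60 at P3 (limma, adjusted *p* = 0.644), which corresponds to 2.59-fold and 3.83-fold lower levels in ACM. The call at P1 was lost by the methods' *t*-test, in limma on the 6 P1 arrays alone and with the mean of the AQP4 probes, which gave -0.61 at P1 and -1.11 at P3 and passed at neither passage. AQP4 was the 1 marker of 9 called at P3, and with SLC1A3 1 of the 2 with an unadjusted *p*-value of 0.05 or less beside 7.28% of all genes. At P3, 0.819% of all genes tested were called lower and 0.914% higher. Under the names of the series' table, the differences were 1.31 at P1 and 1.49 at P3, the opposite direction, and neither passed.

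ACM and DMEM arrays lay together on slide 2 alone, and there medium and passage differed together. The mean of AQP4 in its P3 ACM arrays lay -2.24 from that in its P1 DMEM arrays, beside a median of -0.03 over all probes. Within slide 3, P3 DMEM exceeded P1 DMEM replicate 3 by 1.12 in AQP4. With slide as a block the difference at P3 was -3.36 ± 1.00 (limma, adjusted *p* = 0.977). No slide held both P3 groups, so this value was linked through the P1 DMEM arrays of slides 2 and 3. Its size holds both the -2.24 of slide 2 and the 1.12 of slide 3, the latter set against 1 array. At P1 the difference was -1.47 ± 1.00 with the slide block and no longer passed (limma, unadjusted *p* = 0.174). With the replicate number as a block, which pairs the P1 arrays, it did not pass either (limma, unadjusted *p* = 0.0674). The DMEM arrays of slide 3 were themselves spread, with P1 DMEM replicate 3 at -4.49 and P3 DMEM replicate 2 at -2.46. The second probe, A_24_P202522, which was well above background on 7 of the 12 arrays, gave 0.15 ± 0.70 at P1 and -0.28 ± 0.70 at P3. Its levels were -6.73, -6.73 and -5.42 in P1 ACM, -5.84, -7.91 and -8.28 in P3 ACM, -5.16, -6.80 and -7.38 in P1 DMEM, and -6.52, -7.28 and -7.41 in P3 DMEM, and on slide 2 only P1 DMEM replicate 1 was well above background. The AQP4 probes thus differed in their result under the reported setting without slides. After quantile normalization, also without slides, the second probe gave -0.79 at P1 and -1.18 at P3. The brighter probe gave -1.99 and -2.09 there, so the sign was then the same on both.

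**Figure D4:**
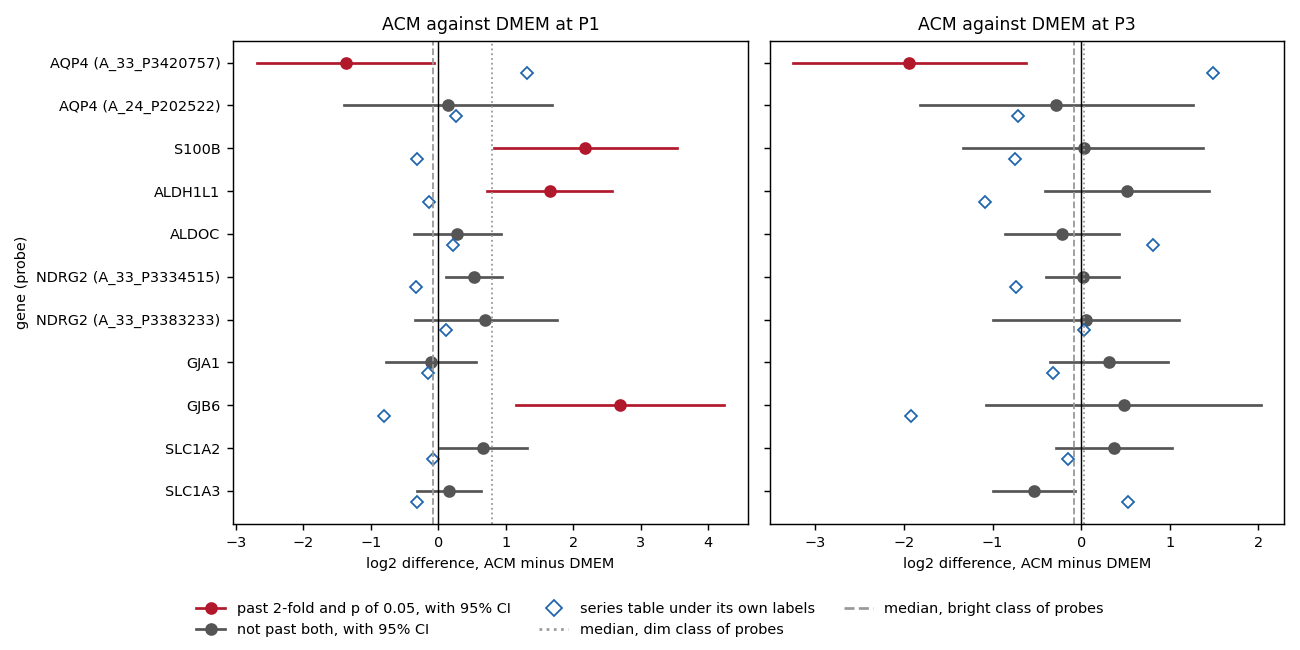
Difference between ACM and DMEM (log2, limma, with 95% confidence intervals) for the 11 marker probes tested at P1 (left) and P3 (right), in red where it was more than 2-fold with an unadjusted p of 0.05 or less, with open diamonds for the series' table under its own sample names. AQP4 (A_33_P3420757) is red at both passages, at -1.37 and -1.94, while its diamonds lie at 1.31 and 1.49, and the red intervals of GJB6, S100B and ALDH1L1 at P1 have no counterpart at P3.

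The glutamate transporters differed by less than 2-fold. SLC1A2, or GLT-1, the main glutamate transporter of mature astrocytes, had levels of -4.75, -4.22 and -4.22 in P1 ACM, -4.04, -5.16 and -5.05 in P3 ACM, -5.31, -4.99 and -4.90 in P1 DMEM, and -4.97, -5.41 and -4.98 in P3 DMEM. Here again the 4 arrays of slide 1 were the highest of the 12, the P1 groups did not overlap, and the P1 difference of 0.67 ± 0.30 (limma, unadjusted *p* = 0.0448, adjusted *p* = 0.206) became 0.00 after quantile normalization. SLC1A3, or GLAST, the glutamate transporter of radial glia and cerebellar astrocytes, was well above background on every array. Its levels were -0.43, -0.65 and -0.37 in P1 ACM, -0.34, -0.52 and -0.47 in P3 ACM, -0.77, -0.81 and -0.36 in P1 DMEM, and -0.34, 0.41 and 0.20 in P3 DMEM. P3 DMEM replicates 2 and 3 were above all other arrays, and the difference between ACM and DMEM was 0.16 ± 0.21 at P1 (95% confidence interval -0.31 to 0.63) and -0.53 ± 0.21 at P3 (limma, unadjusted *p* = 0.0289, adjusted *p* = 0.689).

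GJA1, NDRG2 and ALDOC differed between media by less than 2-fold. GJA1, which codes for connexin 43, the chief gap junction protein of astrocytes and also of many other cells, ranged from 1.23 to 2.20 over the 12 arrays. Its levels were 2.17, 1.94 and 1.31 in P1 ACM, 2.17, 2.09 and 1.28 in P3 ACM, 2.20, 1.91 and 1.65 in P1 DMEM, and 1.88, 1.23 and 1.49 in P3 DMEM, and the media overlapped at both passages. The interval of its difference was -0.78 to 0.56 at P1 and -0.35 to 0.98 at P3, which leaves room for a change of just under 2-fold and does not show equal levels.

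NDRG2, a protein of the N-myc downstream regulated family that astrocytes make in quantity, had levels of 4.44, 4.61 and 4.19 in P1 ACM and 3.89, 3.65 and 4.09 in P1 DMEM on its brighter probe, and these did not overlap. P3 ACM gave 4.27, 3.83 and 4.16 beside 4.20, 4.06 and 3.95 in P3 DMEM. The difference was 0.53 ± 0.19 at P1 (limma, adjusted *p* = 0.124), under 2-fold, and 0.02 ± 0.19 at P3. The second NDRG2 probe, between -2.41 and -0.26, gave 0.70 ± 0.48 and 0.05 ± 0.48 with overlapping groups. ALDOC, the brain form of the glycolytic enzyme aldolase, had levels of -3.69, -3.68 and -3.72 in P1 ACM, -4.01, -4.10 and -3.83 in P1 DMEM, -3.48, -4.03 and -3.35 in P3 ACM, and -4.04, -2.74 and -3.42 in P3 DMEM. Its differences of 0.28 ± 0.29 and -0.22 ± 0.29 did not pass, and the P1 difference turned to -0.20 after quantile normalization.

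In all, 6 of the 11 marker probes tested had P1 groups that did not overlap, where 34.8% of all probes had none, and 1 probe of 11 did so at P3, where the share of all probes was 9.49%. 

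Between P3 and P1 no marker was called in DMEM, where 1.72% of all genes tested were, and GJB6 was called lower at P3 in ACM, where 7.47% of all genes tested were called lower. In DMEM, SLC1A3 had an unadjusted *p*-value of 0.00538 at a difference of 0.74 ± 0.21 (limma, adjusted *p* = 0.571), less than 2-fold. S100B was at least 1.09-fold higher in P3 DMEM, since no P1 DMEM array had it well above background, and the fit gave 1.15 ± 0.61 (limma, adjusted *p* = 0.571). P3 DMEM lay wholly on slide 3 and P1 DMEM mostly on slide 2. Within slide 3, P3 DMEM minus P1 DMEM replicate 3 was 0.45 in SLC1A3, and S100B was at least 2.08-fold higher in P3 DMEM. In ACM, the P3 minus P1 difference was -1.78 ± 0.70 in GJB6 and, under 2-fold, -0.95 ± 0.42 in ALDH1L1 (limma, unadjusted *p* = 0.0278 and 0.0449, adjusted *p* = 0.371 and 0.372), beside a median of -0.62 in the dim class of probes. P1 ACM lay wholly on slide 1 and P3 ACM mostly on slide 2, and with slide as a block these differences were 0.23 and 0.01. GJB6 was well above background on 1 of the 3 P3 ACM arrays, so the size of its -1.78 was not measured.

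The ACM effect itself differed between passages in 3 of the 9 markers by an unadjusted *p*-value of 0.05 or less, where 8.24% of all genes tested did. The effect at P3 minus that at P1 was -2.22 ± 0.99 in GJB6, -2.16 ± 0.87 in S100B and -0.70 ± 0.30 in SLC1A3 (limma, adjusted *p* = 0.634, 0.626 and 0.633), and the median of the dim class of probes was -0.75. The value of S100B rests on P1 DMEM arrays that did not have it well above background, and on P3 ACM, where 1 of the 3 arrays did. GJB6 was well above background on 1 of the 3 arrays in each of these groups, so neither size was measured. For AQP4 the effect at P3 minus that at P1 was -0.56 ± 0.84 (95% confidence interval -2.42 to 1.29), and a difference between passages was not detectable. Once slide was fitted none of the 3 had an unadjusted *p*-value of 0.05 or less, and this count also went to 0 without P1 DMEM replicate 1, P3 DMEM replicate 2 or P3 DMEM replicate 3.

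How far the P1 differences depended on the setting is shown for the 4 called markers. Under normexp background correction with quantile normalization AQP4 was still called, at -1.16, while GJB6, S100B and ALDH1L1 shrank to 0.61, 0.41 and 0.78, all under 2-fold. None of the 4 was called once slide was fitted as a block. For GJB6 and S100B that fit rests on slide 2 arrays on which neither was well above background, so it cannot settle the size of their differences.

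**Figure D5:**
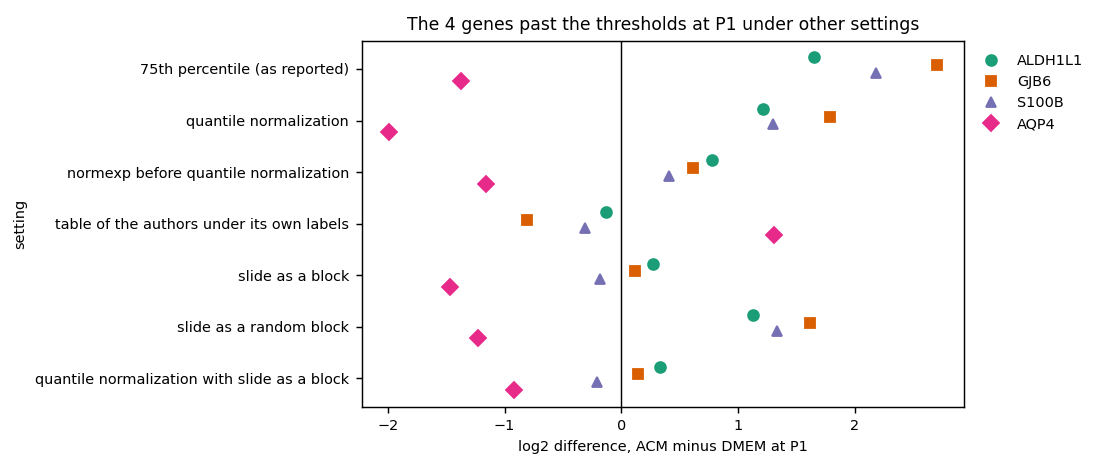
Difference between ACM and DMEM at P1 (log2, horizontal) of the 4 markers called at P1, under the reported setting and 6 others (vertical). GJB6, S100B and ALDH1L1 move from 2.70, 2.18 and 1.65 to 0.12, -0.18 and 0.27 with slide as a block, and AQP4 stays between -1.99 and -0.92 except under the names of the series' table, where it is 1.31. The block values of GJB6 and S100B rest on slide 2 arrays on which neither was well above background.

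The wider astrocyte lists were described by the same counts. Of 34 further astrocyte genes tested, 4 were called higher at P1 (11.8%, beside 10.8% of all genes with a symbol) and none lower, and none was called at P3. Among them were HEPACAM, a cell adhesion protein of astrocytes (1.23 ± 0.37), SPARCL1, a secreted matrix protein (1.81 ± 0.56), and KCNJ10, the potassium channel Kir4.1 (1.23 ± 0.52), with adjusted *p*-values in limma of 0.103, 0.104 and 0.189. In the fit with slides the differences were -0.45 in HEPACAM, 0.42 in SPARCL1 and 1.34 in KCNJ10. After quantile normalization they were 0.87, 0.83 and 0.18 in turn. SPARCL1 and KCNJ10 were each well above background on 1 of the 3 P1 DMEM arrays. Of 18 genes of reactive astrocytes 1 was called at P1, the metalloreductase STEAP4 (1.24 ± 0.42, limma, adjusted *p* = 0.115), which was -0.67 with the block. The median differences of the further astrocyte genes and of the reactive genes at P1 were 0.05 and 0.09, beside 0.07 for all genes with a symbol.

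Some markers of microglia and of neurons were called at P1 as well. Of 9 microglia markers tested, 3 were called higher, CX3CR1 (2.16 ± 0.56), P2RY12 and C1QC, and of 13 neuron markers 3 were, RBFOX3 (2.93 ± 0.93), ELAVL4 (1.25 ± 0.37) and ELAVL3. These are shares of 33.3% and 23.1%, beside 10.8% of all genes with a symbol and 34.2% of probes in the dim class. P2RY12, C1QC and ELAVL3 passed the filter on dim probes through ACM arrays alone, which favoured their being called higher. None of the P1 DMEM arrays had these genes well above background. Their differences are therefore bounds, at least 1.27-fold for P2RY12, 1.02-fold for C1QC and 1.23-fold for ELAVL3. CX3CR1 and RBFOX3 were well above background on 1 of the 3 P1 DMEM arrays each. No oligodendrocyte, granule neuron lineage or reference gene was called at P1. Adjusted *p*-values of these 6 genes in limma ran from 0.103 to 0.107, and with slide as a block their differences ran from -0.49 to 1.91. Their part in the astrocyte marker result was not tested.

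For the 3 markers whose brightest probe was well above background on all 12 arrays and varied most, the genes of most similar pattern were found among 15518 genes, by the root mean square difference of levels centred over the 12 arrays. AQP4, with an SD of 1.13 over the arrays, lay nearest to FADS2, a fatty acid desaturase, HMGCS1, an enzyme of cholesterol synthesis, and PLA2G3, a secreted phospholipase, at distances of 0.47, 0.48 and 0.49. ALDH1L1, with an SD of 0.83, had ENPP2 and SIDT1 among its nearest genes, both at 0.27. ALDOC, with an SD of 0.39, lay nearest to GPKOW, PDIA5 and CLEC4A, at 0.13, 0.14 and 0.14. The arrays in these comparisons share slides, so the distances describe a pattern over slides as well as over media.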

How the data were processed

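Total RNA of Daoy cells was labelled with Cy3 and hybridised to 1-colour Agilent human expression arrays, per the labels. The deposited scanner files hold intensity per spot, made by the authors' service with Agilent Feature Extraction 11.0.1.1. The deposited series table holds log2 values. They matched the scanner intensities after quantile normalization to a median absolute difference of 0.000526 over 30569 probes, and every column had a median of 9.02. Its sample names conflict with those of the scanner files, so which arrays form its groups, and with that the size and direction of its group comparisons, stays unknown.

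Control spots and outlier spots were left out, spots of a probe were averaged, and log2(processed signal) minus the 75th percentile of each array was used. No spot was saturated. Probes well above background on all 3 arrays of at least 1 group were tested (31078). All 12 arrays entered 1 fit with a mean per group (limma 3.58.1, R 4.3.3), *p*-values were two-sided and adjusted by Benjamini-Hochberg, and a gene was counted through its brightest probe. A probe was assigned to a marker where its accession mapped to that symbol in RefSeq, and 75.5% of probes had 1 symbol. GFAP was not tested, since neither of its probes was kept. The fit was tested on simulated arrays that had no slide effects and a spread per probe of at most the median one. That test therefore does not bear on the arrangement of slides and groups here.

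The members and gene lists were chosen with earlier results of these data known. All markers are named with every probe, and of each other list at most 4 called genes per passage, those of smallest *p*; some genes these rules select are not reported here. Alternatives were quantile normalization, normexp (offset 50, on median signals), no or a stricter filter, slide as a block or a random block, the replicate block, the methods' *t*-test, trend and robust settings, the mean of a gene's probes, the series table and leaving out each array. Deviations of same-numbered ACM and DMEM arrays from their group means correlated positively at P1 (r = 0.43, 0.19 and 0.27) and with mixed sign at P3 (0.23, -0.19 and 0.06). The number of arrays limits the precision.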

Additional observations from a re-analysis of the deposited data

How the results depend on the processing

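The count of 4 markers called at P1 became 1 under normexp with quantile normalization (AQP4), 2 with probes well above background on all 12 arrays alone, where 6 markers were tested (ALDH1L1 and AQP4), 2 with slide as a random block (ALDH1L1 and GJB6), and 0 with slide as a block, with or without quantile normalization, and under the series' table by its own names. AQP4 was not called at P1 by the methods' *t*-test (unadjusted *p* = 0.149), with only the arrays compared (limma, unadjusted *p* = 0.0549) or with the mean of its probes (limma, unadjusted *p* = 0.299). Some settings were added once the data had been seen, namely quantile normalization together with the slide block, the second AQP4 probe and, for a comparison at 1 passage, the omission of an array from the other. With the replicate block, in which same-numbered arrays were paired, 3 markers were called at P1 and AQP4 (limma, unadjusted *p* = 0.0674) was not, and the block changed no other count by over 1.5 times. The count of 1 at P3 (AQP4) became 2 under the table's names (ALDH1L1 and GJB6), 0 with the mean of a gene's probes and 2 without P3 ACM replicate 2 (ALDH1L1 and AQP4), and between 1 and 2 markers were called at P3 over all left-out arrays. That of 0 between passages in DMEM became 1 (S100B) with only the arrays compared and by the methods' *t*-test. That of 1 in ACM (GJB6), for which every other setting was added, became 0 with normexp, under the table's names, with the stricter filter, with only the arrays compared, by the methods' *t*-test and with slide as a fixed block (with quantile normalization too) or as a random one, and ranged from 0 to 3 over the left-out ACM arrays, with 3 without P3 ACM replicate 1 (ALDH1L1, GJB6 and S100B), 1 without P1 ACM replicate 3 (ALDH1L1) and 0 without any other ACM array. The count of 3 for the difference of the ACM effect became 1 with quantile normalization, under the table's names and with the stricter filter, 0 with normexp and with slide as a fixed block (with quantile normalization too) or as a random one, and ranged from 0 to 5 over the left-out arrays, with 5 without P3 ACM replicate 1, 0 without P1 DMEM replicate 1 or P3 DMEM replicates 2 or 3, and 1 without P1 ACM replicates 1 or 2, P3 ACM replicates 2 or 3 or P1 DMEM replicate 2. Between 3 and 4 markers were called at P1 over the left-out arrays.

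AQP4 at P1 was below the thresholds without P1 ACM replicate 1 (-1.18), P1 ACM replicate 2 (-1.15), P1 DMEM replicate 1 (-0.78) or P1 DMEM replicate 2 (-1.45), and, with its difference still -1.37, without P3 ACM replicate 2 or P3 DMEM replicate 1, whereas at P3 it was called whichever array was left out, between -2.40 and -1.48. Under the table's names the P1 differences that turned were 1.31 in AQP4, -0.31 in S100B, -0.13 in ALDH1L1, -0.33 in NDRG2, -0.81 in GJB6, -0.07 in SLC1A2 and -0.31 in SLC1A3. At P3 they were 1.49 in AQP4, -0.75 in S100B, -1.09 in ALDH1L1, 0.81 in ALDOC, -0.73 in NDRG2, -0.32 in GJA1, -1.92 in GJB6, -0.15 in SLC1A2 and 0.53 in SLC1A3. The slide block turned S100B to -0.18 at P1 and -0.72 at P3, SLC1A2 to -0.31 at P1 and GJA1 to -0.25 at P3, and with quantile normalization added these were -0.21, -0.80, -0.23 and -0.17. The S100B values under the block rest on slide 2 arrays that did not have it well above background. Quantile normalization turned ALDOC to -0.20 and took SLC1A2 to 0.00 at P1, normexp gave ALDOC -0.13 and GJA1 0.03, and the second AQP4 probe gave 0.15 at P1. Leaving out 1 array turned small differences, with ranges over the left-out arrays of -0.30 to 0.14 for GJA1 at P1 and, at P3, of -0.77 to 0.81 for S100B, -0.54 to 0.12 for ALDOC, -0.53 to 1.24 for GJB6 and -0.08 to 0.14 for NDRG2. Without P1 DMEM replicate 1, 7 markers in place of 6 were well above background on every DMEM array. The cause of these changes was not tested.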

Other observations

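Some genes of other lists were called at P3, where the astrocyte markers other than AQP4 were not. OLIG2, a transcription factor of oligodendrocyte precursors, was higher in P3 ACM than in P3 DMEM by 1.09 ± 0.44 (SE; limma, adjusted *p* = 0.692). It was among 2 of 10 oligodendrocyte markers called higher, beside 0.824% of all genes with a symbol called higher. NEFL and NEFM, the light and medium neurofilament subunits, were lower, by -1.34 ± 0.36 and -1.27 ± 0.48 (limma, adjusted *p* = 0.612 and 0.683), and they were 2 of 13 neuron markers, beside 0.743% of all genes with a symbol called lower. In the fit with slide as a block the differences were 1.79 in OLIG2, -1.88 in NEFL and -0.80 in NEFM. Under the names of the series' table they were -0.35, 0.68 and 1.75.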
